A study of Mus musculus with 6 samples.

Results

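A set of 10 genes that report on the ERK branch of receptor tyrosine kinase signalling were followed in B16F10.9 mouse melanoma cells given interferon-gamma (IFN-gamma). They were chosen by symbol, as the phosphatase genes Dusp4, Dusp5 and Dusp6, the Sprouty genes Spry1, Spry2 and Spry4, the Spred genes Spred1 and Spred2, and the ETS factor genes Etv4 and Etv5. All 10 were found in a table of 39179 genes, and all 10 were among the 17021 genes that the authors tested. B16F10.9 is a pigmented melanoma line labelled as of C57BL/6 origin. The tested cells had recombinant mouse IFN-gamma in the medium for 24 h at a labelled dose of 50 µg/ml, and the other cells had no agent. The unit of the dose is as the label gives it and is in doubt, since ng/ml may have been meant. Each group had 3 sequenced libraries. Cells were seeded in triplicate. Whether the triplicates were separate cultures beyond that is not stated, and p-values then measure only the spread between these libraries, which may be technical.

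In this pathway a growth factor receptor activates RAS, RAF, MEK and then ERK, a kinase that enters the nucleus and switches on genes. Some of these genes encode brakes on the pathway itself: dual-specificity phosphatases remove the phosphates that activate ERK, and Sprouty and Spred proteins act nearer to RAS and RAF. Etv4 and Etv5 belong to the same set of ERK-driven transcripts but encode activating transcription factors, not brakes. Because their transcripts follow ERK activity in many melanomas, these genes are often read together as a gauge of the pathway.

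Levels are FPKM, a fragment count corrected for transcript length and library size, with 1 value per gene and group in the authors' deposited table. There was no value per library, so no SD, no interval and no new test across libraries is given, and the depth of the libraries is unknown. Genes called higher or lower, or said to rise or fall, had q under 0.05 in the authors' deposited table. The lowest q there, 0.000187, was shared by 4545 tested genes, so it does not rank them. Irf1, a transcription factor induced by IFN-gamma, stood at 482 FPKM after IFN-gamma and at 10.2 FPKM in untreated cells. The 7 melanocyte lineage markers Mlana, Pmel, Tyr, Tyrp1, Dct, Mitf and Sox10 stood between 78.7 and 4045 FPKM over both groups. Of 12 markers of other cells, the 5 leukocyte markers summed to 0.0277 FPKM after IFN-gamma and 0.263 FPKM in untreated cells, with Cd3e listed at 0 after IFN-gamma. Itgam was the leukocyte marker that was tested, and it fell to 0.0130 FPKM after IFN-gamma, against 0.141 FPKM in untreated cells. The 5 fibroblast and endothelial markers summed to 0.279 FPKM after IFN-gamma and 0.507 FPKM in untreated cells, and Pdgfra fell among the 3 tested. The keratinocyte markers Krt5 and Krt14 were listed at 0 after IFN-gamma and at no more than 0.00701 FPKM in untreated cells.

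After IFN-gamma 7 of the 10 genes fell, 1 rose and 2 were not called. Over all 17021 tested genes 20.9% fell and 23.4% rose. The median log2 ratio of the 10 genes, IFN-gamma over untreated, was -0.59, beside 0.04 over all tested genes. The genes did not move as a block: Dusp6 was the member that rose, by 2.18-fold, while Etv4, Etv5, Spry4 and Dusp5 fell by at least 2-fold and Dusp4, Spry1 and Spred2 by less. In RNA from whole cultures, fewer expressing cells and less RNA per cell cannot be told apart. Each count and ratio compares 2 group values.

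**Figure D1:**
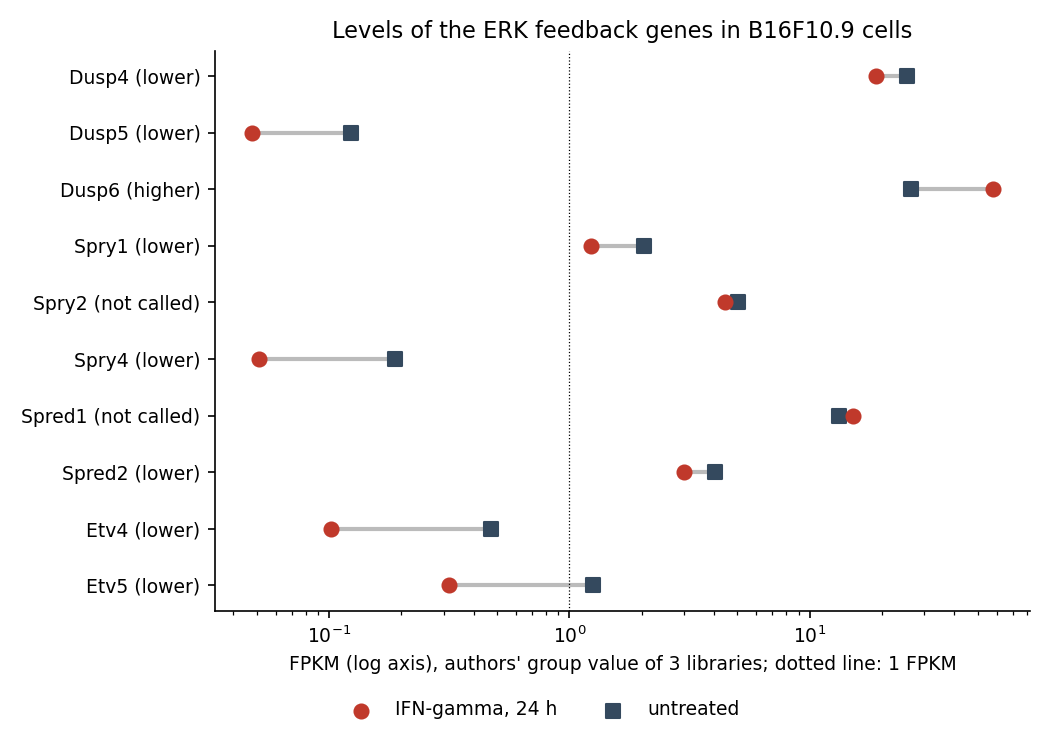
FPKM of the 10 genes on a log axis, circles for IFN-gamma (24 h) and squares for untreated cells, each the authors' group value of 3 libraries, with the authors' call in brackets. Dusp6 is the gene called with the circle to the right, at 57.7 FPKM after IFN-gamma and 26.5 FPKM in untreated cells, and Dusp5, Spry4 and Etv4 lie under 1 FPKM in both groups.

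Dusp6 encodes the cytoplasmic phosphatase that acts on ERK with little action on other MAP kinases. It stood at 57.7 FPKM after IFN-gamma and at 26.5 FPKM in untreated cells, a log2 ratio of 1.12 (q = 0.000187 in the authors' deposited table). In level it was above 88.9% of tested genes after IFN-gamma and above 77.6% in untreated cells. Its change was not extreme in these cells, since 2235 tested genes had a higher ratio. The gene lies on chromosome 10 (99263231 to 99267489, plus strand, GRCm38), and its exons overlap no other annotated gene.

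Dusp4, a nuclear phosphatase that acts on ERK and on other MAP kinases, moved the other way. It fell to 18.9 FPKM after IFN-gamma, against 25.4 FPKM in untreated cells, a log2 ratio of -0.43 (q = 0.00116 in the authors' deposited table). The pair had thus stood almost level in untreated cells and lay apart after IFN-gamma: the level of Dusp6 was 3.06 times that of Dusp4 after IFN-gamma and 1.04 times that of Dusp4 in untreated cells, both per length. Dusp5, a nuclear phosphatase that acts on ERK, was near 0. It was listed at 0.0479 FPKM after IFN-gamma and at 0.123 FPKM in untreated cells, a log2 ratio of -1.36 (q = 0.0297 in the authors' deposited table). Of the 17021 tested genes 255 had a higher-group value below that of Dusp5, so it was tested only just above the level at which genes went untested. Dusp5 and Spry4 lay in the FPKM range of the leukocyte and fibroblast markers, which were also lower in sum after IFN-gamma, and the part of such cells in their falls was not tested. An antisense gene, AC137853.2, overlaps exons of Dusp5, and reads from an unstranded library such as this cannot be split between such a pair. Summed over the 3 phosphatase genes, the level was 76.6 FPKM after IFN-gamma and 52.1 FPKM in untreated cells.

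The Sprouty genes, whose products block the signal between receptor and RAF, were lower after IFN-gamma where they were called. Spry1 fell to 1.23 FPKM after IFN-gamma, against 2.05 FPKM in untreated cells, a log2 ratio of -0.75 (q = 0.000187 in the authors' deposited table). An antisense gene, Gm42922, overlaps exons of Spry1. Spry2, the most abundant of the 3, was at 4.46 FPKM after IFN-gamma and at 5.04 FPKM in untreated cells and was not called (q = 0.298 in the authors' deposited table). Spry4 was listed at 0.0510 FPKM after IFN-gamma and at 0.188 FPKM in untreated cells, a log2 ratio of -1.88 (q = 0.000187 in the authors' deposited table). The ratio of Spry4 rests on values near 0: 6.48% of tested genes had a higher-group value below it, and with a pseudocount of 1 FPKM the log2 ratio was -0.18. The 2 SPRY4-IT1 entries that share its locus were listed at 0 in both groups. Spry2 made up most of the Sprouty level in both groups, at 3.64 times Spry1 after IFN-gamma and 2.45 times Spry1 in untreated cells.

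The Spred genes, which encode Sprouty relatives at the membrane, held 1 fall. Spred1, whose product brings the RAS inhibitor neurofibromin to the membrane, was at 15.1 FPKM after IFN-gamma and at 13.3 FPKM in untreated cells and was not called (q = 0.223 in the authors' deposited table). Its longest listed transcript has 6016 nt, and the 500 tested genes nearest in length had a median log2 ratio of 0.44. Relative to these genes the log2 ratio of Spred1 was -0.26, in place of 0.19. Spred2 fell to 3.01 FPKM after IFN-gamma, against 4.02 FPKM in untreated cells, a log2 ratio of -0.42 (q = 0.00782 in the authors' deposited table). Relative to genes of like length its log2 ratio was -0.71, a larger fall. Over the 5 Sprouty and Spred genes the summed level was 23.8 FPKM after IFN-gamma and 24.6 FPKM in untreated cells, with Spred1 as the largest part in both.

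Etv4 and Etv5, ETS factors of the PEA3 group, had the lowest ratios of the 10 genes. Etv1, an ETS gene outside the 10 picked out once its values were known, was not called. It was at 0.713 FPKM after IFN-gamma and 0.553 FPKM in untreated cells. Etv5 fell to 0.315 FPKM after IFN-gamma, against 1.26 FPKM in untreated cells, a log2 ratio of -1.998 (q = 0.000187 in the authors' deposited table). It stood under 1 FPKM after IFN-gamma and above it in untreated cells, and 788 of the tested genes had a lower ratio. Etv4 was listed at 0.102 FPKM after IFN-gamma and at 0.471 FPKM in untreated cells, a log2 ratio of -2.21 (q = 0.000362 in the authors' deposited table). The authors' test score for Etv4 was -0.91 in the authors' deposited table, smaller in size than that of Dusp4 at -2.04, although the ratio of Etv4 was the more distant from 0. The levels of both were low, so that with a pseudocount of 1 FPKM the log2 ratio was -0.42 for Etv4 and -0.78 for Etv5. Per length, Etv5 stood at 3.10 times Etv4 after IFN-gamma and at 2.67 times Etv4 in untreated cells.

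**Figure D2:**
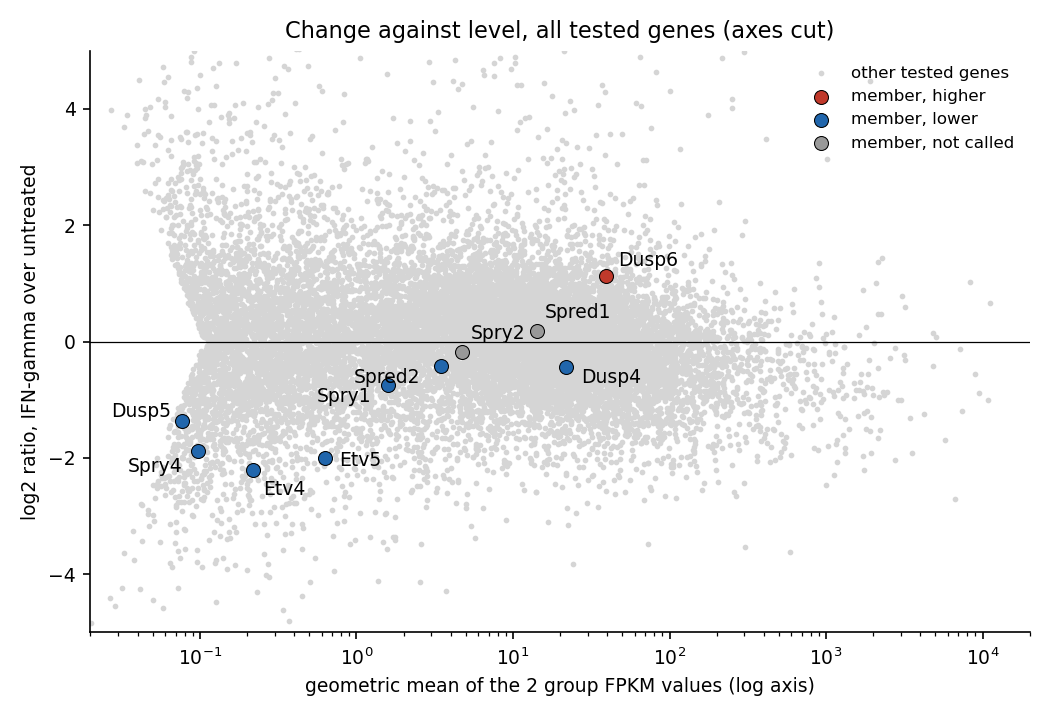
Log2 ratio (IFN-gamma over untreated) against the geometric mean of both group FPKM values (log axis) for tested genes in grey and the 10 named genes in colour by the authors' call; genes outside the axes are not drawn. Dusp5 and Spry4 lie at the left edge, where tested genes end, and Dusp6 lies high on the right at a log2 ratio of 1.12.

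The level of a gene bears on how such a fall reads. Dusp5, Spry4 and Etv4 were under 1 FPKM in both groups, and among the 4221 tested genes that were, 7.79% fell and 9.78% rose. Of the 7 members that reached 1 FPKM in either group, Dusp4, Spry1, Spred2 and Etv5 fell and Dusp6 rose. Among the 12800 tested genes of that level 25.3% fell and 27.9% rose. At least 2-fold falls were those of Dusp5, Spry4, Etv4 and Etv5, beside 8.88% of all tested genes that fell so far, and the rise of Dusp6 was at least 2-fold, beside 9.69% of all tested genes. With q under 0.01 required, 6 members fell and 1 rose, beside 17.2% and 19.5% of all tested genes. With an unadjusted p under 0.05 in the authors' deposited table, 7 fell and 1 rose, beside 23.5% and 25.8%. When the adjustment covered the 12800 genes alone, 4 fell and 1 rose, beside 25.8% and 28.4%. Etv5 is the member whose fall was both at least 2-fold and from at least 1 FPKM.

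The order of the 10 genes by level was the same in both groups: Dusp6, Dusp4, Spred1, Spry2, Spred2, Spry1, Etv5, Etv4, Spry4 and Dusp5. Without values per library, the spread between neighbours in this order is unknown. Within that order the makeup shifted towards Dusp6. Dusp6 held 57.2% of the summed FPKM of the 10 genes after IFN-gamma and 33.8% in untreated cells. Dusp4 held 18.7% after IFN-gamma and 32.5% in untreated cells, and Spred1 15.0% after IFN-gamma and 16.9% in untreated cells. The sum over the 10 genes was 101 FPKM after IFN-gamma and 78.4 FPKM in untreated cells. Without Dusp6 the order of the sums turned round, at 43.2 FPKM after IFN-gamma and 51.9 FPKM in untreated cells.

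**Figure D3:**
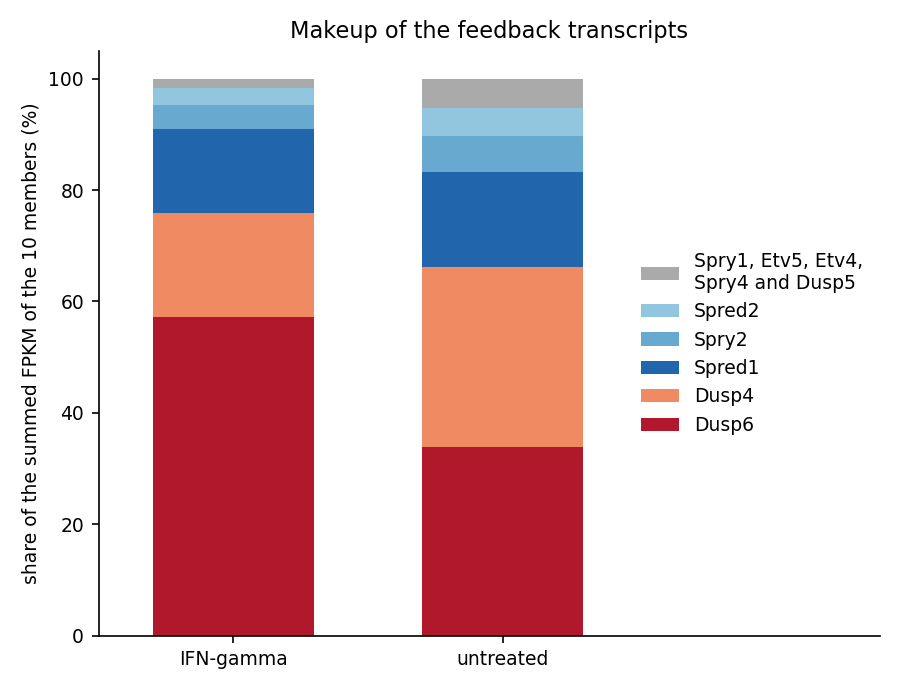
Share of each gene in the summed FPKM of the 10 genes (%), IFN-gamma on the left and untreated on the right, with the 5 genes of lowest level drawn as 1 block. Dusp6 takes 57.2% after IFN-gamma and 33.8% in untreated cells.

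Sequence at the start sites was set beside these values for Dusp6, the member that rose, for Dusp5 and Etv5, which fell, and for Spry1, which fell at a level above 1 FPKM. Capicua, encoded by Cic, is a repressor that ERK signalling relieves at ETS and feedback genes. Windows of 250 bases before to 50 after a start, from RefSeq (GRCm38.p6), matched 7 of the 10 genes with 8 windows. Dusp4, Etv4 and Spry4 were the genes with none. Of the motifs searched on both strands 4 are reported. They are the ISRE core (GAAANNGAAA), a form of the Capicua octamer (TGAATGNA), an ETS site (CCGGAAG) and an E-box (CACGTG). None of these 4 was found in the 8 windows, while 3.44%, 3.82%, 8.86% and 7.15% of all 32851 windows held them, in the same order. Only the letters given were searched for each, so a window may hold another form of such a site. The shorter core TGAATG lies inside the octamer form searched and was chosen after the sequences were seen. It was in 3 of the 8 windows and in 12.7% of all windows. Capitals mark this core or its reverse complement.
Dusp6: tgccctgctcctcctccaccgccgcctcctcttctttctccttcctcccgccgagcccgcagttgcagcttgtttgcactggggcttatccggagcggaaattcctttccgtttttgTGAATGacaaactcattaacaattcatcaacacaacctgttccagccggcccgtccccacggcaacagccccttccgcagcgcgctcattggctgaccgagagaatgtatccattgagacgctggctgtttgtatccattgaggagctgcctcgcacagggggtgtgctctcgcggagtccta
Dusp5: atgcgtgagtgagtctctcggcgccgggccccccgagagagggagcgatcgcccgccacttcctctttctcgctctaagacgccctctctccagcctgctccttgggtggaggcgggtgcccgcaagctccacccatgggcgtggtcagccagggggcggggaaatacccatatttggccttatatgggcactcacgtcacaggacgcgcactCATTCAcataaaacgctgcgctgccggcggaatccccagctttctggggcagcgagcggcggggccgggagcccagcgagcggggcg
Etv5: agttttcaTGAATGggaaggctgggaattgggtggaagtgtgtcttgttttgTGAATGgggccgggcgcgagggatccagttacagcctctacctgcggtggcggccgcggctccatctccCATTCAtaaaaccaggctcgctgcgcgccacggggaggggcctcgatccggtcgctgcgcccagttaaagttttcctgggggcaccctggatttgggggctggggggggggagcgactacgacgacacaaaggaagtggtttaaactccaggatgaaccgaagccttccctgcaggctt
Spry1: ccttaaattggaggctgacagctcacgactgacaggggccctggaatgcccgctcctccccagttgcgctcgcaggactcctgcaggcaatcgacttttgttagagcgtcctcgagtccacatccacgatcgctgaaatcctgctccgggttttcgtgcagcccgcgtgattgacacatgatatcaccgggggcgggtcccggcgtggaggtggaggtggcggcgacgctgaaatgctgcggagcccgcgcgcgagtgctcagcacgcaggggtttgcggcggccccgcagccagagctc
These lie at chr10:99262981-99263280 (plus strand) for Dusp6, chr19:53528895-53529194 (plus strand) for Dusp5, chr16:22438319-22438618 (minus strand) for Etv5 and chr3:37639697-37639996 (plus strand) for Spry1. The core starts 133 bases before the start in Dusp6 and 37 bases before it in Dusp5. The Etv5 window, the more downstream of the 2 listed for that gene, holds it 3 times, at 242, 198 and 129 bases before the start. So the rising Dusp6 and the falling Dusp5 and Etv5 share these letters in the windows shown. The other Etv5 window does not hold them, nor do the windows of Spry1, Spry2, Spred1 and Spred2. A match is a run of letters, and whether Capicua binds there was not measured.

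The rest of the pathway was read through 6 lists with 80 genes, of which 67 were tested. Of these 22 rose, 12 fell and 33 were not called, with a median log2 ratio of 0.22. This leaves 50.7% of the tested genes called, beside 44.4% of all tested genes. The lists went different ways, and the feedback genes had the lowest median of all, -0.59, against -0.27 for the other ERK-driven transcripts, the next lowest. No list was adjusted for transcript length, and the part of length in the differences between lists was not tested. The 500 tested genes nearest in length to Spred1 (6016 nt) had a median log2 ratio of 0.44. Those nearest to Spry2 (2087 nt) had one of -0.16.

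**Figure D4:**
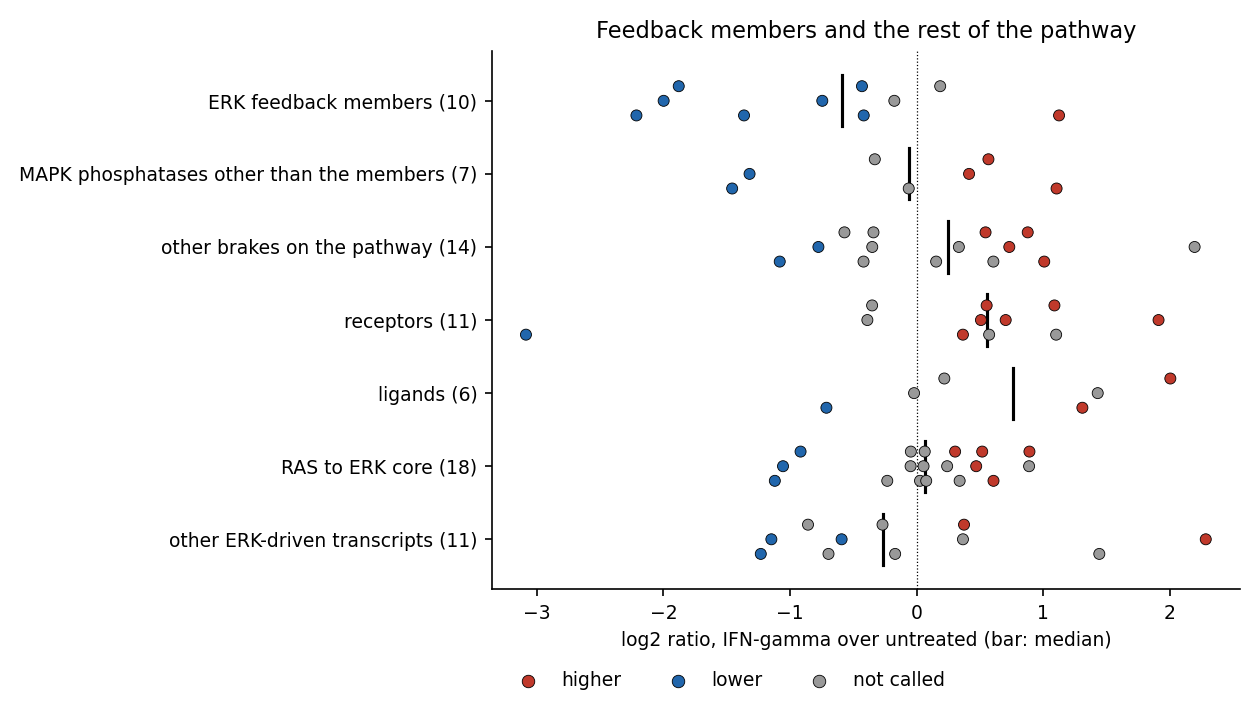
Log2 ratio (IFN-gamma over untreated) of each tested gene, 1 line per list with the number of tested genes, coloured by the authors' call; bars are list medians and the vertical spread within a line has no meaning. The 10 feedback genes have a median of -0.59 and the 6 ligands one of 0.76.

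Ligands and receptors at the top of the pathway held rises and falls, and over all tested genes too rises (23.4%) outnumbered falls (20.9%). Kitl, the ligand of the receptor Kit, rose to 3.24 FPKM after IFN-gamma, against 0.809 FPKM in untreated cells, and Tgfa, a ligand of the EGF receptor, to 1.69 FPKM, against 0.682 FPKM in untreated cells (q = 0.000187 for both in the authors' deposited table). Hbegf, another EGF receptor ligand picked out once its values were known, fell to 0.594 FPKM, against 0.974 FPKM in untreated cells. Of 14 ligand genes 6 were tested, of which 2 rose, 1 fell and 3 were not called. The receptors of Kitl and Tgfa were scarce: Kit was at 0.0931 FPKM after IFN-gamma and 0.119 FPKM in untreated cells without a call, and Egfr, not tested, at 0.00635 FPKM after IFN-gamma and 0.0252 FPKM in untreated cells, both picked out once their values were known. Among receptors Axl rose to 8.43 FPKM after IFN-gamma, against 2.24 FPKM in untreated cells, and Erbb3, which binds neuregulins, to 16.5 FPKM, against 7.77 FPKM in untreated cells. Met, the receptor of hepatocyte growth factor, rose to 21.5 FPKM after IFN-gamma, against 14.7 FPKM in untreated cells, and Fgfr3 to 3.75 FPKM, against 2.64 FPKM in untreated cells. Of 11 tested receptor genes 6 rose, 1 fell and 4 were not called. With a change of at least 2-fold required 2 rose and 1 fell, beside 9.69% and 8.88% of all tested genes. Pdgfra, picked out once its values were known, fell, at 0.0175 FPKM after IFN-gamma and 0.149 FPKM in untreated cells.

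In the relay from RAS to ERK 44.4% of the tested genes were called, beside 44.4% of all tested genes. Mapk3, which encodes an ERK kinase and was picked out once its values were known, was at 90.5 FPKM after IFN-gamma and 106 FPKM in untreated cells and was not called. The largest changes of the list were those of Rps6ka1, a kinase downstream of ERK, Hras, Shc1 and Ptpn11. Rps6ka1 fell to 3.14 FPKM after IFN-gamma, against 6.82 FPKM in untreated cells, and Hras to 33.8 FPKM, against 70.3 FPKM in untreated cells. Shc1, an adaptor at receptors, fell to 38.1 FPKM after IFN-gamma, against 72.0 FPKM in untreated cells. Ptpn11, which encodes the phosphatase SHP2 that aids RAS activation, rose to 55.3 FPKM after IFN-gamma, against 29.8 FPKM in untreated cells. The list held 18 tested genes, with 5 rises, 3 falls and 10 genes without a call. Of all tested genes 23.4% rose and 20.9% fell.

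Other brakes went both ways, with a median log2 ratio of 0.24, against -0.59 for the feedback genes, neither adjusted for transcript length. Pebp1, the RAF kinase inhibitor protein, fell to 330 FPKM after IFN-gamma, against 697 FPKM in untreated cells, and Errfi1, an inhibitor of the EGF receptor family, to 2.30 FPKM, against 3.94 FPKM in untreated cells. Cbl, a ubiquitin ligase for receptors, rose to 5.47 FPKM after IFN-gamma, against 2.72 FPKM in untreated cells. Cic rose to 34.8 FPKM after IFN-gamma, against 18.9 FPKM in untreated cells (q = 0.0188 in the authors' deposited table), with a test score of 0.98 by the authors. Of 14 tested brakes 4 rose, 2 fell and 8 were not called, beside 23.4% and 20.9% of all tested genes that rose and fell. Nf1 and Spred3, picked out once their values were known, rose too. Nf1 stood at 13.6 FPKM after IFN-gamma and 8.19 FPKM in untreated cells, and Spred3 at 1.63 FPKM after IFN-gamma and 1.12 FPKM in untreated cells. Nf1 encodes neurofibromin, the partner of Spred1.

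MAP kinase phosphatases outside the 10 genes split too. Dusp10 and Dusp16, which act mainly on JNK and p38, rose to 10.3 and 13.1 FPKM after IFN-gamma, against 4.79 and 8.83 FPKM in untreated cells. Dusp1, an early-response MAP kinase phosphatase, rose to 8.18 FPKM after IFN-gamma, against 6.14 FPKM in untreated cells. Dusp2, a nuclear phosphatase, fell to 3.80 FPKM after IFN-gamma, against 9.48 FPKM in untreated cells. Of the closest relatives of Dusp6, both picked out once their values were known, Dusp9 fell to 0.188 FPKM after IFN-gamma, against 0.515 FPKM in untreated cells, and Dusp7, at 11.1 FPKM after IFN-gamma and 11.6 FPKM in untreated cells, was not called. The list held 7 tested genes, with 3 rises, 2 falls and 2 genes without a call. Of all tested genes 23.4% rose and 20.9% fell.

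Among other transcripts that ERK drives, Ccnd1, Ier2 and Myc fell. Ccnd1, the cyclin D1 gene, fell to 11.8 FPKM after IFN-gamma, against 27.7 FPKM in untreated cells, a log2 ratio of -1.23. Ier2, an immediate early gene, fell to 12.5 FPKM after IFN-gamma, against 27.7 FPKM in untreated cells, and Myc to 12.6 FPKM, against 18.9 FPKM in untreated cells. Phlda1, another gene used to gauge the pathway, rose to 93.7 FPKM after IFN-gamma, against 72.3 FPKM in untreated cells. Egr1, picked out once its values were known, rose at a level near 0, listed at 0.128 FPKM after IFN-gamma and 0.0264 FPKM in untreated cells. The list held 11 tested genes, with 2 rises, 3 falls and 6 genes without a call. Of all tested genes 23.4% rose and 20.9% fell. Of the genes named from the lists, Dusp10, Errfi1, Nf1, Erbb3, Egfr, Pdgfra, Rps6ka1 and Ccnd1 share a locus with other genes in the table, and their values depend on how fragments were assigned there.

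**Figure D5:**
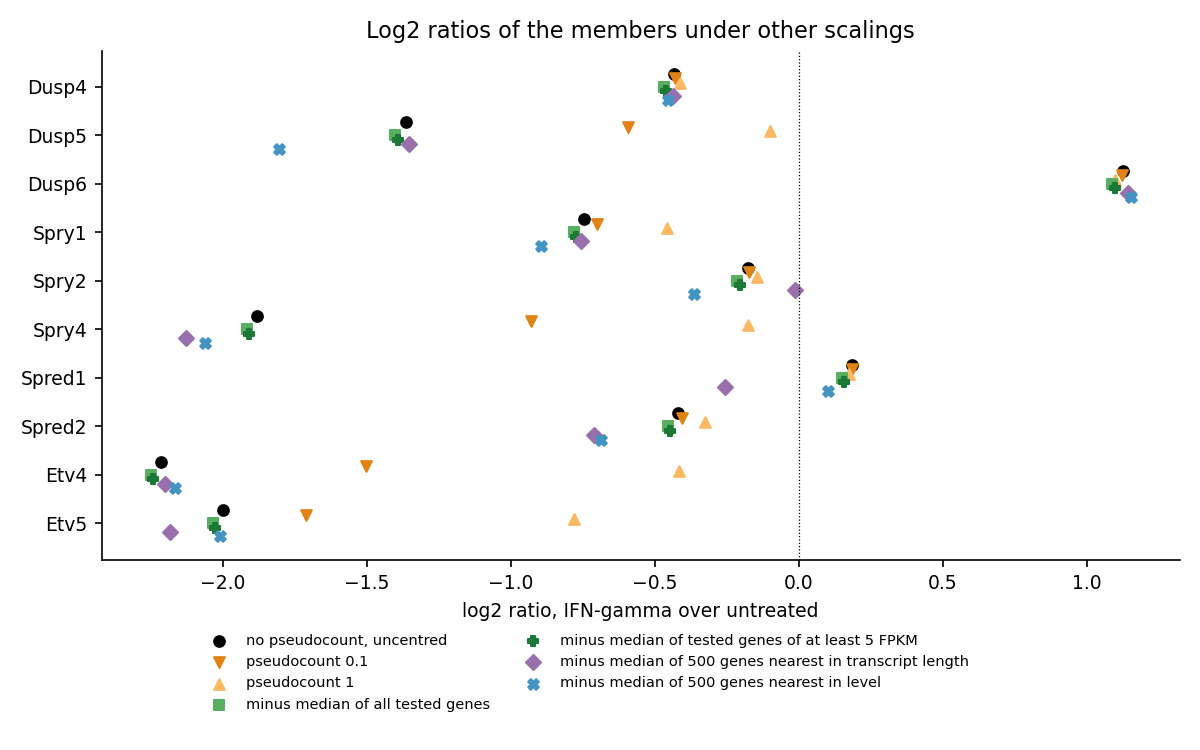
Log2 ratios (IFN-gamma over untreated) of the 10 genes as reported and under 6 other scalings, 1 symbol each. Dusp6 stays between 1.09 and 1.15, while the pseudocounts draw Dusp5, Spry4, Etv4 and Etv5 towards 0 and the length setting takes Spred1 to -0.26.

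The size of the changes depended on the scaling in the genes of low level, as the plot of the 10 genes under other scalings shows. Dusp6 kept a log2 ratio between 1.09 and 1.15 over the 6 other scalings, and Dusp4 one between -0.47 and -0.41. Spry1 lay between -0.89 and -0.46. The log2 ratio of Dusp5 was -0.10 with a pseudocount of 1 FPKM and -1.80 relative to the 500 genes nearest in level. No called gene changed direction under any of the 6.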

How the data were processed

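Libraries from 3 IFN-gamma-treated and 3 untreated samples of B16F10.9 cells were made with a TruSeq RNA V2 kit, per the labels. The submitters' processing notes name TopHat2 2.0.11, Cufflinks 2.2.1, Cuffdiff and GRCm38. Parameters and the annotation release were not given in the sources used here. Each gene has in the authors' deposited sheet 1 FPKM value per group, a test score, a p-value and a q-value. The deposited q-values equal a Benjamini-Hochberg adjustment over the 17021 tested genes to within 5.3e-07, and the smallest p-value is 5e-05. A title line of the sheet speaks of infected against uninfected samples; the sample cells, which name B16 and IFN, were followed. Log2 ratios were recomputed from FPKM without a pseudocount. 2 shorter sheets of 6953 genes repeat these values and were not used.

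With 1 value per group nothing was refitted, as the design allowed. Transcript length is that of the longest listed transcript in GENCODE M21 (GRCm38), found for 98.9% of tested genes. A searched promoter motif and some genes of the lists are not reported here, though the genes are in the counts and sums. The 10 genes and the lists were chosen with earlier results of these data known. Up to 4 called genes per list are named, those of largest change that reached 1 FPKM in either group. Python 3.11.15, numpy 2.4.6, pandas 2.3.3 and matplotlib 3.10.9 were used.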

Additional observations from a re-analysis of the deposited data

How the results depend on the processing

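Of the 10 genes, 1 rose and 7 fell as reported, beside 23.4% and 20.9% of all tested genes. The rise of Dusp6 was called under each of the 5 other call rules tried. The count of falls was 4 with a change of at least 2-fold required (8.88% of all tested genes). It was 4 with at least 1 FPKM in the higher group required (25.3% of tested genes of that level). With the authors' p-values adjusted over genes of that level it was 4 (25.8% of those genes). It was 6 at q under 0.01 (17.2% of all tested genes), without Dusp5, and 7 at an unadjusted p under 0.05 (23.5%). Of 67 tested genes in the pathway lists, 22 rises became 7 with at least 2-fold required (9.69% of all tested genes), and 17 at q under 0.01 (19.5%). The 12 falls became 8 with at least 2-fold required (8.88% of all tested genes). Of 60 recomputed log2 ratios of the 10 genes, 59 kept their sign, and the other was that of Spred1 relative to genes of like length. No library could be left out in turn, since only group values were used. No paired analysis was possible because the columns hold 1 value per group. Depth is unknown, and ratios of genes under 1 FPKM are the least certain.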

Other observations

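Dusp genes outside the lists, looked up by symbol after the data were seen, went both ways. Of 14 such genes 10 were tested, of which 2 rose, 3 fell and 5 were not called, beside 23.4% and 20.9% of all tested genes that rose and fell. Dusp28 rose to 29.4 FPKM after IFN-gamma, against 12.2 FPKM in untreated cells, and Dusp18 to 6.997 FPKM, against 4.56 FPKM in untreated cells. Dusp12, Dusp19 and Dusp22 fell to 18.8, 25.6 and 22.4 FPKM after IFN-gamma, against 28.2, 41.3 and 31.5 FPKM in untreated cells. Dusp3, the most abundant of these after IFN-gamma, was at 52.1 FPKM after IFN-gamma and 46.1 FPKM in untreated cells and was not called.

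A further 11 ETS genes outside the lists, so without Etv1, were looked up the same way, and 8 were tested. Here 4 rose, 0 fell and 4 were not called, and at the 20.9% of all tested genes that fell, so few genes give no contrast with Etv4 and Etv5. With an unadjusted p under 0.05 in the authors' Cuffdiff test the count of falls was also 0. Etv6, which encodes a repressor, rose to 19.8 FPKM after IFN-gamma, against 5.58 FPKM in untreated cells, the largest ratio of the 8 at 3.55-fold. Etv3 rose to 7.50 FPKM after IFN-gamma, against 4.15 FPKM in untreated cells, Elk4, a partner of serum response factor, to 24.6 FPKM, against 10.7 FPKM in untreated cells, and Ets1 to 86.4 FPKM, against 65.7 FPKM in untreated cells. Ets1 was the most abundant ETS gene of those looked up, and Etv4 was under 1 FPKM.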
